A study of Mus musculus with 4 samples.

Results

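The 9 genes described here encode core parts of the machinery that releases insulin granules: the SNARE proteins Snap25, Stx1a and Vamp2, the calcium sensor Syt7, the small GTPases Rab3a and Rab27a with the effector Sytl4, and the priming factors Rims2 and Unc13a. They were taken from a fixed list of symbols, and all 9 were found among the 43629 Ensembl genes counted in each library. RNA from pancreatic islets of C57BL/6 mice was sequenced, with 1 library for each of 4 groups. The groups were control islets (genotype control), islets labelled as a knockout of IMP2 (genotype Rip2;IMP2), an immunoprecipitation of IMP2 with its bound RNA from wild-type islets (RIP), and a library labelled IgG, also from wild-type islets. IMP2 is an RNA-binding protein whose gene is Igf2bp2. Rip2 is a common name of an insulin promoter active in beta cells, so other cells of the islet may keep the gene. Age, sex, treatment and pooling of animals are not given in the sources used here. Since each group is a single library, there is no replicate check and no p-value, and each ratio compares a pair of libraries, not conditions.

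Beta cells store insulin in dense-core granules that dock at the plasma membrane and fuse with it when calcium enters. Fusion is driven by a complex of VAMP2 on the granule with syntaxin-1A and SNAP-25 on the plasma membrane, and synaptotagmin-7 is a calcium sensor of high affinity. RAB3A and RAB27A sit on the granule and recruit effectors such as granuphilin, the product of Sytl4, while RIM2 and MUNC13-1, the products of Rims2 and Unc13a, make docked granules ready to fuse.

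Depth and content differed between the libraries. Gene counts summed to between 6025594 (RIP) and 26350813 (control), with 24275628 in the labelled knockout and 13195732 in the IgG library. Igf2bp2, the targeted gene, stood at 9.68 CPM (a gene's share of the gene counts of its library, in parts per 1e6) in the control and 9.14 CPM with the knockout label, a ratio of 0.979 (95% interval 0.814 to 1.18). This count over the whole gene does not bear out the label, so directions below are those of the library labelled knockout. A list of 13 beta cell markers summed to between 11039 and 14339 CPM in the control, labelled knockout and RIP libraries but to 45.8 CPM in the IgG library, where Glp1r was at 0 counts and Iapp led with 29.6 CPM. A list of 9 markers of brown and white adipocytes summed to 36046 CPM there, 2329 CPM in the RIP, 273.0 CPM in the control and 228.0 CPM with the knockout label. The islet label of the IgG library is thus not matched by its beta cell markers.

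Promoter windows were at hand for 5 of the 9 genes, with 7 start sites between them (RefSeq, GRCm38.p6). The 250 bases before the start are shown for a SNARE, a Rab and a priming factor, chosen because Stx1a and Unc13a had few counts in the IgG library and Rab3a had more. Capitals mark GGGCGG, the GC box, on either strand.
Stx1a, chr5:135023232-135023481, plus strand: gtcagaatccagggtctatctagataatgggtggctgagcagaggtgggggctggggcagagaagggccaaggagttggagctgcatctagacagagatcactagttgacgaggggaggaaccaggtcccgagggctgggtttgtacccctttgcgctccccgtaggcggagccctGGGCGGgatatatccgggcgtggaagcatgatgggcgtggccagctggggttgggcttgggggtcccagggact
Rab3a, chr8:70754453-70754702, plus strand: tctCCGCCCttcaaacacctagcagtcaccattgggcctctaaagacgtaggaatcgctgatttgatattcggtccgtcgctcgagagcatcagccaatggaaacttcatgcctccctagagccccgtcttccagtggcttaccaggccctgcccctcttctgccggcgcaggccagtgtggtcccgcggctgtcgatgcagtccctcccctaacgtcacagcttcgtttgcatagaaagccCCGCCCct
Unc13a, chr8:71671758-71672007, minus strand: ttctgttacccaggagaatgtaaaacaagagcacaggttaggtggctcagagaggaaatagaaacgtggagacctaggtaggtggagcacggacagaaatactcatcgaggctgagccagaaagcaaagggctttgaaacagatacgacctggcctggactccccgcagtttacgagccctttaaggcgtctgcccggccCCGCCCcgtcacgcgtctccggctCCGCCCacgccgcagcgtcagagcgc
In the windows shown, the GC box occurred 1 time before Stx1a and 2 times each before Rab3a and Unc13a. Of all 32851 windows of this length, 32.7% hold it. Among the windows not shown, the Rab27a window from 73044560 held it 1 time. It was absent from the other Rab27a window, from a further Rab3a window (70754852 to 70755101) and from that of Sytl4. TATAAA was in none of the 7 windows, against 12.4% of all windows. In the windows shown, TGACG (17.8% of all windows) was found 1 time before Stx1a, 1 time before Rab3a and 2 times before Unc13a. In the same windows, CCAAT (33.8%) was found 2 times before Rab3a, and CAGCTG (13.0%) 1 time before Stx1a. Both strands were searched, and no match overlapped another. CpG dinucleotides numbered 9, 16 and 18 before Stx1a, Rab3a and Unc13a, against a median of 6 over all windows. The windows not shown held 15 (Rab3a), 14 and 5 (Rab27a) and 5 (Sytl4).

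Just after the start of Unc13a lie the letters of both parts of the element bound by REST, a repressor of neuronal and endocrine genes in other tissues. The parts searched were TTCAGCACC (0.371% of windows of 300 bases) and GGACAGC (6.56%). They were found from 8 to 31 bases after the start, at chr8:71671727-71671750, on the strand opposite to the gene. The stretch is shown, as read on the plus strand with the parts in capitals, because few genes have both.
Unc13a element: TTCAGCACCgggggcgcGGACAGC
The parts are 8 bases apart, wider than in the canonical element. Both parts on the same strand occurred in 12 of 32851 windows, or 0.0365%. The match describes letters only and is no evidence of binding.

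All 9 genes were detected in control islets, from Vamp2 at rank 398 of 24350 detected genes to Rims2 at rank 9875. Together they summed to 923.7 CPM in the control, 1217 with the knockout label, 964.2 in the precipitate and 66.2 CPM in the IgG library, where 4 of them were at or under 3 counts. To compare genes, levels were divided by the length of the merged exons of each gene (CPM per kilobase).

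**Figure D1:**
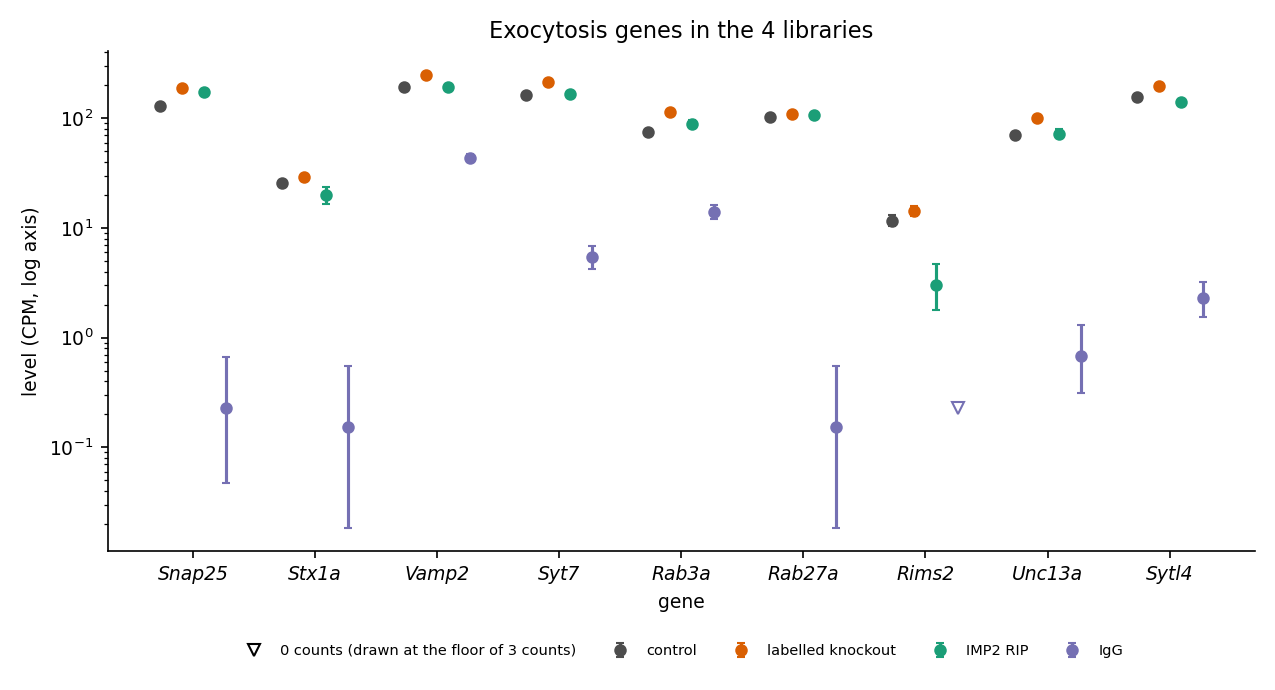
Level of each gene in each library in CPM on a log axis, with bars for the exact 95% Poisson interval of the count. The control, labelled knockout and RIP points lie close together for all genes but Rims2, and the IgG points spread from 43.2 CPM for Vamp2 down to 0 counts for Rims2 (open triangle, drawn at the floor of 3 counts).

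Among the SNARE genes, Vamp2, which encodes the granule SNARE (ENSMUSG00000020894, mm10 chromosome 11, 69088490 to 69092384, plus strand), stood at 190.8 CPM in the control, 249.4 with the knockout label, 192.8 in the precipitate and 43.2 for IgG. It was the highest of the 9 genes per kilobase in every library, at 50.1 CPM per kilobase in the control (95% interval 48.7 to 51.5). Snap25, which encodes a plasma membrane SNARE (ENSMUSG00000027273, chromosome 2, 136713453 to 136782428, plus strand), had 129.6, 189.6, 172.9 and 0.227 CPM in the same order, the last from 3 counts. Its place among the 9 depended on the length used. Over the merged exons of its 3 transcripts, 6791 bases, it was at rank 6 in the control with 19.1 CPM per kilobase. Over its longest coding transcript of 2116 bases it was at rank 2 with 61.3. Stx1a, which encodes its syntaxin partner (ENSMUSG00000007207, chromosome 5, 135023482 to 135051100, plus strand), had 25.4, 29.0, 19.7 and 0.152 CPM, the last from 2 counts. At 9.54 CPM per kilobase in the control it was the lowest of the 3 SNARE genes.

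Syt7, the calcium sensor gene (ENSMUSG00000024743, chromosome 19, 10389090 to 10453180, plus strand), had 163.4 CPM in the control, 215.4 with the knockout label, 167.6 in the precipitate and 5.38 for IgG. Rab3a (ENSMUSG00000031840, chromosome 8, 70754679 to 70758677, plus strand) had 74.3, 112.8, 89.5 and 14.1 CPM in the same order. Per kilobase of merged exons it came next after Vamp2 in each library, apart from both neighbours by more than the counting intervals. Rab27a (ENSMUSG00000032202, chromosome 9, 73044854 to 73097629, plus strand) had 102.5, 108.4, 106.5 and 0.152 CPM, with the first 3 libraries close together. Sytl4, whose product granuphilin binds RAB27A (ENSMUSG00000031255, chromosome X, 133936385 to 133981812, minus strand), had 155.1, 197.6, 139.6 and 2.27 CPM.

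The priming factors were the lowest genes per kilobase in the control. Unc13a (ENSMUSG00000034799, chromosome 8, 71624417 to 71671757, minus strand) had 71.0, 100.3, 72.5 and 0.682 CPM in the same order of libraries and 5.62 CPM per kilobase in the control. Rims2 (ENSMUSG00000037386, chromosome 15, 39198261 to 39684372, plus strand) had 11.6, 14.2, 2.99 and 0 CPM, from 306, 345, 18 and 0 counts, and 1.12 CPM per kilobase in the control (0.996 to 1.25). The full order there was Vamp2, Rab3a, Sytl4, Rab27a, Syt7, Snap25, Stx1a, Unc13a and Rims2, with no overlap between the intervals of neighbours. In the labelled knockout Syt7, Rab27a and Snap25 lay within their intervals of each other, and in the precipitate Rab27a, Sytl4 and Snap25, as well as Stx1a and Unc13a. Exon bases shared with another gene made up between 1.30% and 5.13% of the exons of Syt7, Rab3a, Rab27a and Unc13a, and 0 of the exons of the other 5 genes.

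In the library labelled knockout, all 9 genes had ratios above 1 against the control, and 2 were called higher. Rab3a had a ratio of 1.57 (95% interval 1.48 to 1.67) and Snap25 of 1.51 (1.45 to 1.58). The other 7 ratios ran from 1.10 for Rab27a (1.04 to 1.16) to 1.46 for Unc13a (1.38 to 1.55). The median of the 9 was 1.35 (log2 0.44), against a median log2 ratio of 0.00 over all measured genes. Ratios were scaled by TMM, a gene was measured at a mean of 1 CPM over both libraries, and it was called when the interval excluded 1 and the ratio reached 1.5-fold. Over all 15735 genes measured, 6.13% passed as higher and 15.3% as lower, 21.4% in all. Intervals cover the counting error of reads only and leave out any spread between libraries. They are too narrow where several reads come from the same molecule.

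**Figure D2:**
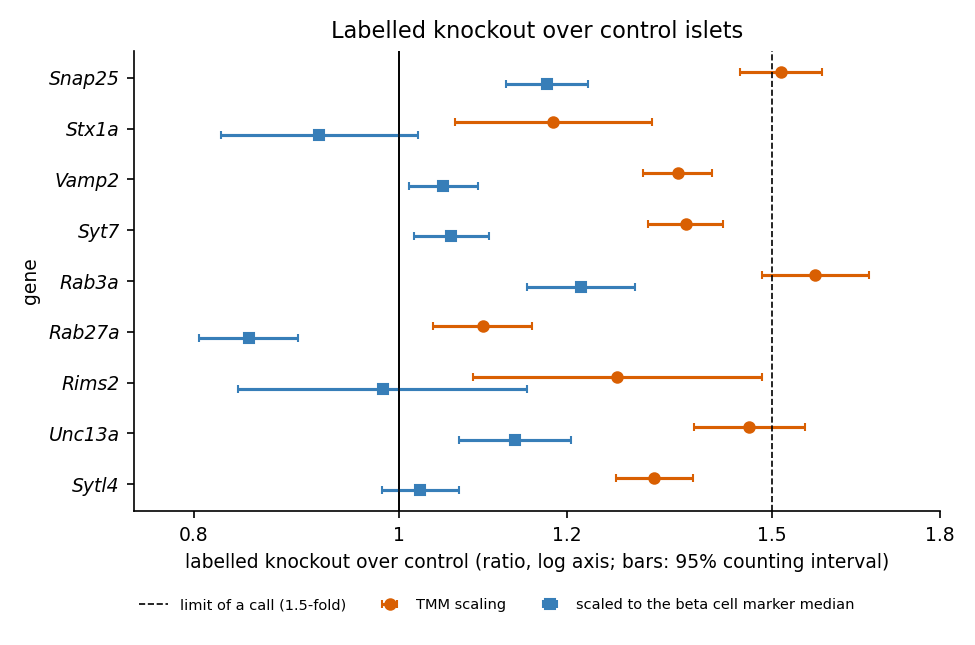
Ratio of the labelled knockout over control for each gene on a log axis, with 95% counting intervals, under TMM scaling (circles) and after scaling to the median of 13 beta cell markers (squares). All circles lie above 1 with Rab3a and Snap25 past 1.5, and the squares lie between 0.849 and 1.22.

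The beta cell markers stood higher in the same library, with a median ratio of 1.29 and 3 of 13 called higher. With that median set to 1, the 9 ratios ran from 0.849 for Rab27a to 1.22 for Rab3a, their median was 1.05, and 0 were called. The interval of Rab27a then lay below 1 (0.804 to 0.896). Stx1a, at 0.917 (0.824 to 1.02), and Rims2, at 0.983 (0.840 to 1.15), had intervals that included 1. That of Sytl4 also included 1 (0.981 to 1.07), and those of the other genes lay above it. These intervals leave out the error of the marker median, so they are too narrow. On this scale 189 of all measured genes were called higher and 4799 lower, against 965 and 2409 under TMM. In bulk RNA, fewer cells of a type and less RNA per cell cannot be told apart. RAB27A also serves the release of lytic granules in lymphocytes, and lymphocyte markers differed between these libraries. The 8 T cell markers summed to 245.6 CPM in the control and 33.3 CPM with the knockout label, and the 7 B cell markers to 1020 and 199.0 CPM, each gene called lower and none at 0. Their part in the ratio of Rab27a was not tested.

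The call of Snap25 depended on the scaling. Its ratio was 1.46 under library totals and 1.49 under DESeq2 size factors, both short of the limit, while Rab3a was called under both. With an assumed variation between libraries of 0.2, the intervals of Rab3a (0.901 to 2.75) and Snap25 (0.869 to 2.64) included 1.

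Of 90 other exocytosis genes on 7 lists, 86 were measured in this comparison, with 9 called higher, 2 lower and a median log2 ratio of 0.21, where 6.13% of all genes measured were higher and 15.3% lower. With beta cell markers set to 1, 2 were called higher and 10 lower. Of the 9 called higher, 7 were Rab effectors or priming and active zone factors. Among Rab effectors, 3 of 10 were called higher: Rph3a, which encodes rabphilin, at 1.97-fold (27.8 CPM against 14.6), Sytl1 at 1.67-fold and Sytl5 at 1.91-fold. Among priming and active zone factors, 4 of 15 were called higher and 1 lower, with a median log2 ratio of 0.40. Unc13b, which encodes MUNC13-2, was 1.89-fold higher (71.6 CPM against 39.3), and Ppfia2, which encodes a liprin scaffold, 2.30-fold (5.40 CPM against 2.43). Unc13d, which encodes MUNC13-4, a priming factor of blood cells, was 3.08-fold lower (2.66 to 3.57), at 9.93 CPM against 31.6. The part of the lymphocyte markers given above was not tested for Unc13d either.

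**Figure D3:**
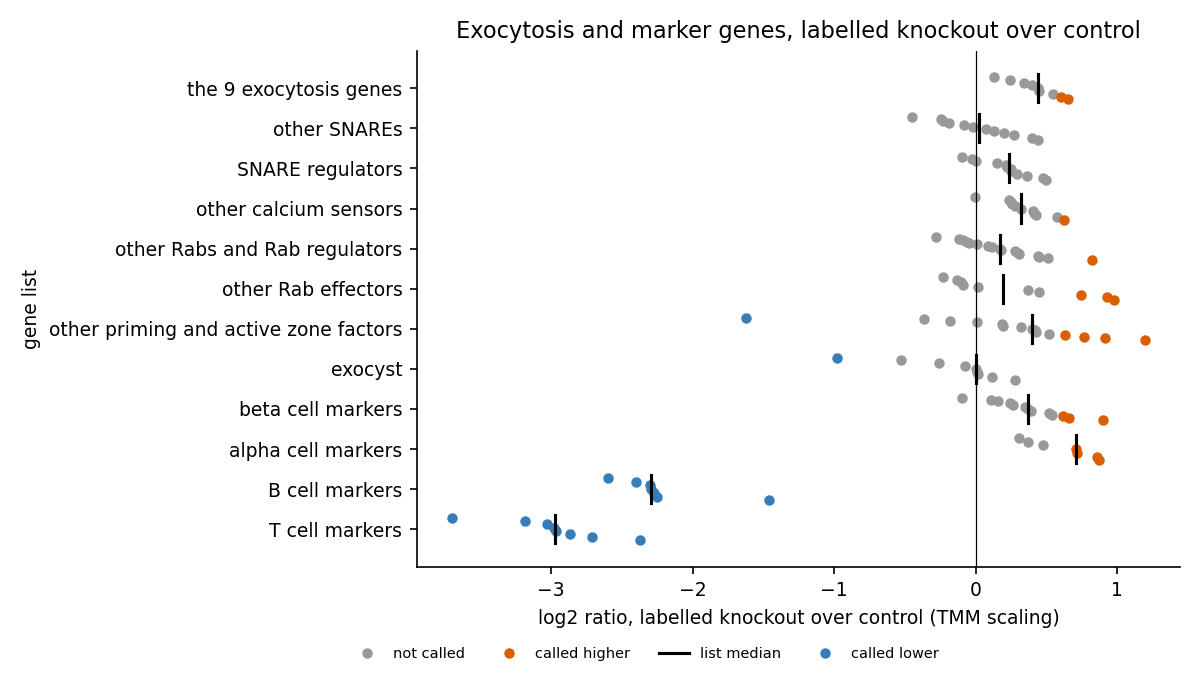
Log2 ratio of the labelled knockout over control under TMM scaling for each measured gene of the exocytosis lists and of 4 marker lists (points, coloured by call), with the median of each list (black line). The list drawn as other calcium sensors holds the other synaptotagmin and Doc2 genes. The 9 genes have a median of 0.44, between those of beta cell markers (0.37) and alpha cell markers (0.71), and the B and T cell markers lie at -2.29 and -2.97.

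Fewer genes were called on the remaining lists. Other SNAREs had 0 of 12 called and a median log2 ratio of 0.03, with Vamp8, a SNARE of many non-neuronal secretory cells, at a ratio of 1.05. SNARE regulators had 0 of 12 called and a median of 0.23, and their most abundant gene, Cplx2, which encodes complexin-2, had a ratio of 1.39 (1.36 to 1.43) from 411.3 CPM in the control. Other synaptotagmin and Doc2 genes had 1 of 11 called, Syt17 at 1.54-fold from 62 and 85 counts. Their median was 0.32, with Syt13 at a ratio of 1.33 (1.30 to 1.36). Of 17 other Rabs and regulators, Rab26 was called higher at 1.77-fold, and Gdi2, which recycles Rab proteins, had a ratio of 0.824. The exocyst, which tethers vesicles, had 1 of 9 called, Exoc6 at 1.97-fold lower (1.71 to 2.28), and a median of 0.00.

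In the IMP2 precipitate, 8 of the 9 genes stood within 2-fold of the control, and Rims2 was called lower. The 8 ratios ran from 0.943 for Stx1a (0.769 to 1.15) to 1.62 for Snap25 (1.51 to 1.74), with Rab3a at 1.46 (1.33 to 1.61) next below Snap25. Vamp2, Syt7, Unc13a and Rab27a lay between 1.23 and 1.26, and Sytl4 at 1.09 (1.01 to 1.18). The median of the 9 was 1.24 (log2 0.31), against a median log2 ratio of -0.12 over all measured genes. Over all 15968 genes measured, 16.8% passed as higher and 24.3% as lower, 41.2% in all, at the 2-fold limit used from here on. With estimated molecules the split over all genes turned from 2686 higher and 3888 lower to 1411 and 1035. For this, reads of the precipitate were divided by an estimate of reads per molecule given below, and control reads were left undivided. Markers of several other cell types moved in this comparison: all 9 adipocyte markers and 4 of 9 measured neuron and Schwann cell markers were called higher, and 8 of 8 T cell and 6 of 7 B cell markers lower. Their part was not tested.

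Rims2 rests on few reads. Its ratio was 0.312 (0.183 to 0.502), 3.20-fold lower, from 18 counts against 306. Genes with over 5 counts in the precipitate and 0 in the control and labelled knockout had a median of 18 counts, a rough estimate of reads per molecule. The cut at over 5 counts can raise that median, so the estimate may be too high. On that estimate Rims2 held 1 molecule, its interval widened to between 0.00788 and 1.75, and its call was lost. The call was kept under the other scalings and with an assumed variation of 0.2 (0.150 to 0.648). The estimate cannot decide between these readings. Stx1a held 7 molecules, with an interval of 0.400 to 2.07. Gm42418, which overlaps ribosomal RNA repeats, took 17.6% of the gene counts of the precipitate and 1.53% in the control. Under library totals, the median of the 9 was 1.02 and Sytl4 stood at 0.900 (0.835 to 0.970).

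The transcripts were of ordinary length. The longest coding transcript had a median of 3168 bases over the 9 genes, against 3299 over 9937 coding genes at 10 CPM or more in the control. GGAC, a short motif reported within sites of IMP proteins, occurred 4.73 times per kilobase at the median of the 9, against 4.20 over the same coding genes. It ranged from 2.66 in Sytl4 to 7.12 in Unc13a.

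**Figure D4:**
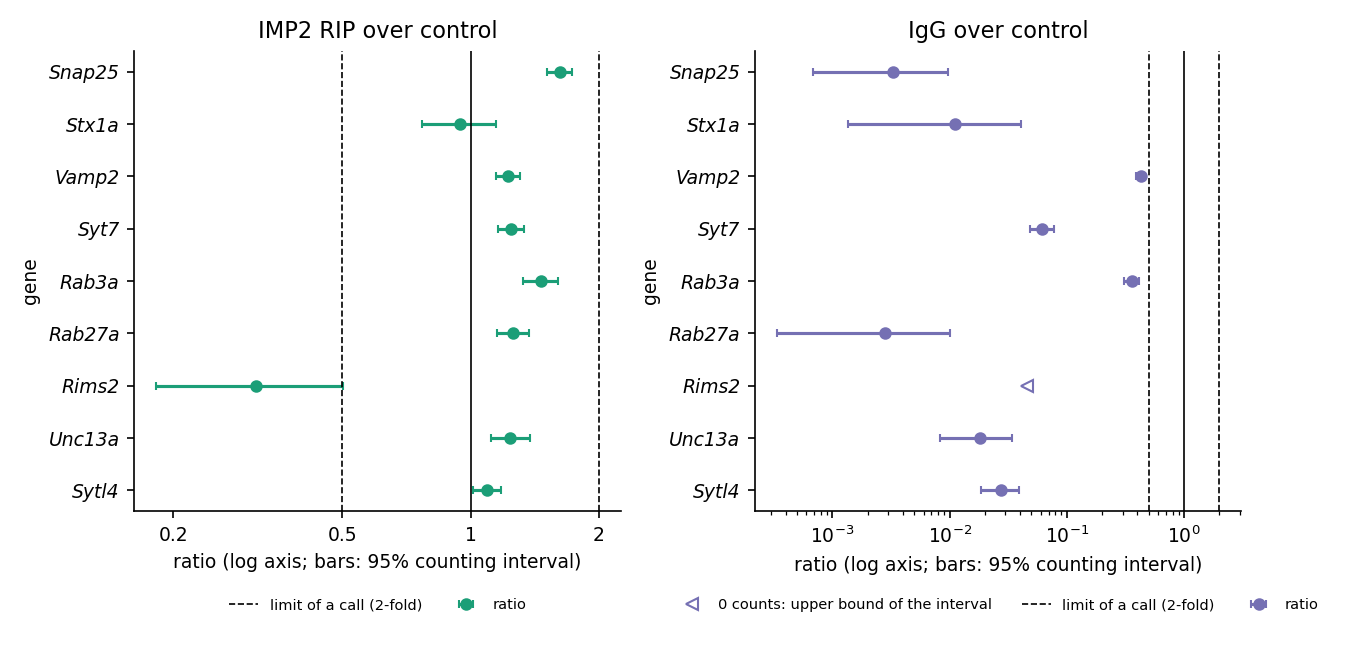
Ratio of the IMP2 RIP (left) and of the IgG library (right) over control for each gene on log axes, with 95% counting intervals and dashed lines at the 2-fold limits; the open triangle is the upper bound for Rims2 at 0 counts. In the RIP all genes but Rims2 lie between 0.943 and 1.62, and in the IgG library Vamp2 (0.426) and Rab3a (0.357) lie to the right of the other genes.

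Against the IgG library, all 9 genes were called higher in the precipitate under TMM, by unequal factors. With estimated molecules 8 were called, Rims2 being lost, and 8 were called with a minimum of 5 CPM, which Rims2 does not reach. Snap25 was 471.8-fold higher (161.0 to 2291, 1042 counts against 3), Rab27a 436.0-fold (120.2 to 3608, 642 against 2) and Stx1a 80.8-fold (21.9 to 675.0, 119 against 2). Unc13a was 65.9-fold higher, Sytl4 38.1-fold and Syt7 19.3-fold. Rab3a was 3.94-fold higher (3.33 to 4.68) and Vamp2 2.77-fold (2.50 to 3.07). Rims2, with 0 counts for IgG, was at least 8.15-fold higher against a floor of 3 counts in that library, but the exact 95% interval reaches down to 5.97, and to 0.0299 with estimated molecules. For the genes with 2 or 3 counts for IgG, division by 21 reads per molecule left no molecules in that library. With estimated molecules Snap25 stood at 136.2, Rab27a at 85.0 and Stx1a at 17.5, values set by the 0.5 added counts. Only the exact lower limits, 17.7, 10.8 and 1.68 in that order, do not depend on the added counts, and no upper limit exists. The median ratio of the 9 was 50.3, 18.8 with estimated molecules, and 137.8 under totals without hormone and acinar genes and Gm42418. On the log2 scale it was 5.65, or 5.23 with Rims2 at its bound, against 0.44 over all measured genes. Over all 14822 genes measured, 43.2% passed as higher and 30.5% as lower, 73.7% in all. That split, 6402 against 4518 genes, was 7670 against 3387 under library totals, 9216 against 2386 under totals without hormone and acinar genes and Gm42418, 2403 against 2864 with estimated molecules, and 10 against 11446 with beta cell markers set to 1. On the last scale 0 of the 9 were called higher and 5 lower. Antibody and tissue content cannot be told apart in this comparison.

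All 9 genes were called lower in the IgG library than in the control, where 47.3% of all 15352 genes measured passed as lower and 25.7% as higher, 73% in all. Vamp2 was 2.35-fold lower (2.15 to 2.56) and Rab3a 2.80-fold (2.41 to 3.27). Syt7 was 16.1-fold, Sytl4 36.2-fold, Unc13a 55.3-fold, Stx1a 89.1-fold, Snap25 302.9-fold and Rab27a 359.2-fold lower, and Rims2 at least 27.1-fold against the floor of 3 counts. The exact upper limit of the Rims2 ratio was 0.0456, a smaller difference than that floor gives. Snap25, Stx1a and Rab27a rest on 2 or 3 counts, which rounded to no molecules. With estimated molecules their ratios of 0.00330, 0.0112 and 0.00278 became 0.0116, 0.0589 and 0.0146, values set by the 0.5 added counts. The exact upper limits were then 0.0853, 0.436 and 0.108. The split over all genes, 3943 higher and 7268 lower, was 2577 and 9191 under library totals, 1957 and 10409 under totals without hormone and acinar genes and Gm42418, and 11657 and 21 with beta cell markers set to 1.

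The beta cell markers had a median log2 ratio of -7.16 in this comparison, or -6.87 with Glp1r at its bound. Their median level for IgG was only 0.606 CPM. The intervals that follow leave out the error of the marker median, so they are too narrow. Set against that median, Vamp2 stood 61.1-fold higher (56.0 to 66.7), Rab3a 51.2-fold (43.8 to 59.6), Syt7 8.89-fold (6.93 to 11.2), Sytl4 3.96-fold (2.67 to 5.66) and Unc13a 2.59-fold (1.18 to 4.93). Snap25, at 0.474 (0.0976 to 1.39), Rab27a, at 0.399 (0.0483 to 1.44), and Stx1a, at 1.61 (0.195 to 5.84), had intervals that included the marker median. Vamp2 and Rab3a, the granule SNARE and a granule GTPase, thus stood apart from Snap25 and Rab27a by more than the counting intervals. Over all measured genes, the median log2 ratio was 6.37 on the marker scale and -0.79 under TMM. Under TMM, Vamp2 was at -1.23 and Rab3a at -1.48, so both lay below the middle of all measured genes on either scale.

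In the IgG library, relatives of several of these genes held the larger share of the family. Per kilobase, Vamp2 made up 42.5% of 6 VAMP genes in the control and 4.22% for IgG, where Vamp8 made up 77.4% (480.2 CPM against 91.2 in the control). Vamp7 was listed at 0 counts in all 4 libraries, so this share rests on the other 5 genes. Snap25 made up 33.4% of the 4 genes of its family in the control (55.0% over coding transcripts), 42.5% with the knockout label, and 44.8% in the precipitate, while for IgG it had 3 counts and Snap29 led with 38.7%. Snap23, its widely expressed relative, had 24.2 CPM in the control and 18.3 CPM for IgG. Stx1a made up 16.5% of 5 syntaxin genes in the control and 0.0892% for IgG. Stx4a, a syntaxin of many cell types, led that family in all 4 libraries, with 63.5% in the control and 88.0% for IgG. Of 12 measured SNAREs outside the 3 described, 5 were called higher and 2 lower in the IgG library than in the control.

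**Figure D5:**
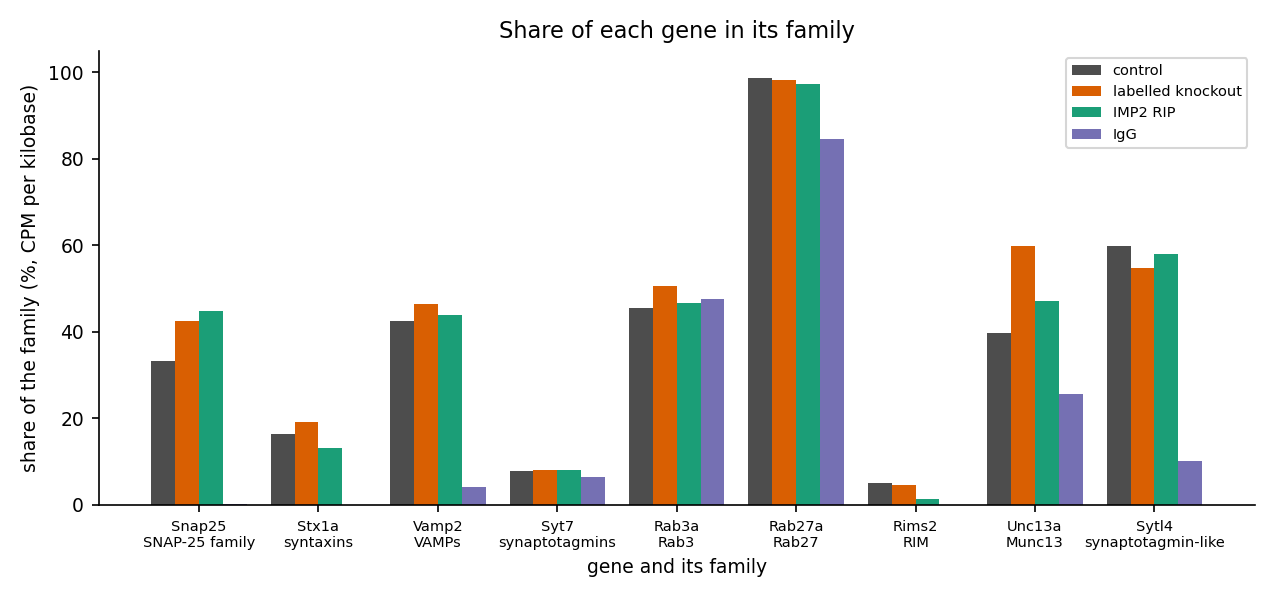
Share of each gene in the summed CPM per kilobase of its family, in percent, for each library (bars from 0, no replicates). Rab27a holds between 84.6% and 98.7% of its pair and Rims2 at most 5.13% of its family. All genes but Rab3a hold a smaller share in the IgG library than in the others.

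Among 4 Rab3 genes, Rab3a made up 45.6% in the control, 50.6% with the knockout label, 46.6% in the precipitate and 47.7% for IgG, where Rab3d held 52.1%. Rab27a made up 98.7% of the Rab27 pair in the control, and its 84.6% for IgG rests on 2 counts. Unc13a held 39.7% of the Munc13 genes in the control, behind Unc13d at 47.8%, and 59.8% with the knockout label. Between these libraries Unc13d went from 6.76 to 2.12 CPM per kilobase, Unc13a from 5.62 to 7.95 and Unc13b from 1.73 to 3.15, so the larger share of Unc13a includes the lower level of Unc13d. Rims2 held 5.13% of the RIM genes in the control, where Rims3, which encodes a short RIM without the domains that bind Rab3 and Munc13, held 92.3%. Sytl4 held 59.9% of 5 synaptotagmin-like genes in the control and 10.2% for IgG, where Sytl1 held 89.8%. Syt7 held 7.84% of 11 synaptotagmins in the control, where Syt13 held 68.3%.

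Of the 90 other exocytosis genes, 81 were measured in the precipitate against IgG, with 52 called higher and 10 lower, where the shares over all genes were 43.2% and 30.5%. Estimated molecules left 33 higher, and with beta cell markers set to 1 there were 0 higher and 57 lower. Of the other synaptotagmin and Doc2 genes, all 9 measured were called higher, and of the SNARE regulators 10 of 12. Their median log2 ratios were 4.36 and 4.05. Syt13 was 70.0-fold higher (55.6 to 89.3), Cplx2 84.8-fold (60.5 to 122.7), and Syt5, with 0 counts for IgG, at least 89.6-fold against the floor (lower limit of the exact interval 72.2). Of 15 priming and active zone factors, 12 were called higher and 1 lower, among them Rims3 at 166.4-fold (84.1 to 386.5) and Cadps, a priming factor of dense-core granules, at 225.5-fold (61.9 to 1869). Rab37 was 203.7-fold higher (69.3 to 991.6), among 9 of 16 Rabs and regulators called higher and 4 lower. Of 12 other SNAREs, 3 were called higher and 5 lower, with Vamp8 at 8.72-fold lower (7.98 to 9.54). The exocyst had 3 of 9 called higher, with Exoc1 at 3.80-fold (2.88 to 5.07). Against the control, 10 of 86 measured genes of these lists were called higher in the precipitate and 13 lower, where the shares over all genes were 16.8% and 24.3%. Estimated molecules left 5 and 2.

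Genes like the 9 across the libraries were sought among 9929 other coding genes at 10 CPM or more in the control. Likeness was the Euclidean distance of 3 log2 ratios over the control from the median of the 9. The nearest were Slc35g2 and Stub1 at 0.098 and 0.099, Efcab1 at 0.108, Cdcp1 at 0.203 and Dnaic1 at 0.208. For IgG these genes stood at 0.0758 CPM (Dnaic1) to 0.379 CPM (Efcab1), near the floor of 0.227 CPM. Single reads can therefore change their order. The 9 genes themselves lay between 0.112 for Unc13a and 4.48 for Vamp2 from that median. The 3 ratios share the control library, and the distance is a description.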

How the data were processed

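The deposited values are whole-number read counts, 1 value per Ensembl gene and library. The authors used STAR, HTSeq and mm10, per the submitters' processing notes; versions, annotation release and strand option are not given in the sources used here. In all, the 5 entries that name no gene held 50.3% to 72.4% of each total and were left out. GENCODE M21 (GRCm38, the assembly of mm10) named 42548 of 43629 genes and gave coordinates and lengths.

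Pairs of libraries were scaled with TMM (edgeR 4.0.16, R 4.3.3). Ratios carry exact 95% Clopper-Pearson intervals (SciPy 1.17.1, Python 3.11.15), and log2 values have 0.5 counts added. A floor of 3 counts equals 0.114 CPM (control), 0.124 (labelled knockout), 0.498 (RIP) and 0.227 (IgG). Ratios and intervals were tested on simulated Poisson counts scaled by library totals. The simulation held no spread between libraries and no repeated reads of a molecule, so it does not test the intervals for these. Alternatives were library totals, DESeq2 1.42.0 size factors, totals without hormone and acinar genes and Gm42418, beta cell marker scaling, other CPM minimums, no fold limit, an assumed variation, estimated molecules, and, chosen after seeing the data, coding transcript lengths. For estimated molecules, counts of the precipitate were divided by 18 and those of the IgG library by 21, then rounded. Control counts were left as reads. The genes and lists were chosen with earlier results of these data known. Other genes named are, per list, up to 3 called genes whose interval lay farthest from 1, otherwise the most abundant; a part of these is printed. Paralogs (Snap23, Unc13d and others) are named for the families.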

Additional observations from a re-analysis of the deposited data

How the results depend on the processing

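No paired analysis was possible because each group has 1 library; for the same reason no replicate could be left out. With beta cell markers set to 1, the knockout label over control gave 0 of the 9 genes called higher (2 under TMM), a median ratio of 1.05, and Stx1a at 0.917, Rab27a at 0.849 and Rims2 at 0.983; the other lists gave 2 higher and 10 lower. Library totals and DESeq2 size factors each gave 1 of the 9 called higher, the assumed variation 0 of the 9 and 3 of the other genes, no fold limit 9, 45 higher and 10 lower of the others, and a minimum of 5 CPM 5 higher of the others. For the precipitate over control, no fold limit gave 7 of the 9 higher, and 40 higher and 24 lower of the others; estimated molecules gave 0 of the 9 lower, 5 and 2 of the others, and Stx1a at 0.998; library totals gave 4 others higher, a median of 1.02 and Sytl4 at 0.900; a minimum of 5 CPM gave 8 others lower. For the precipitate over IgG, beta cell marker scaling gave 0 of the 9 higher and 5 lower, 0 and 57 of the others, a median of 0.302, and ratios of 0.486 for Stx1a, 0.0166 for Vamp2, 0.116 for Syt7, 0.0237 for Rab3a, 0.302 for Rims2 (from 0.5 added counts), 0.396 for Unc13a and 0.229 for Sytl4. Estimated molecules gave 33 others higher there, and the others lower were 6 under library totals, 2 under totals without hormone and acinar genes and Gm42418, and 17 with no fold limit. For IgG over control, beta cell marker scaling gave 5 of the 9 higher and 0 lower, 58 and 0 of the others, a median of 2.74, and ratios of 1.61 for Stx1a, 61.1 for Vamp2, 8.89 for Syt7, 51.2 for Rab3a, 2.59 for Unc13a and 3.96 for Sytl4. Others higher were 4 under library totals and 2 under totals without hormone and acinar genes and Gm42418, where the median of the 9 was 0.00685. With estimated molecules that median was 0.059, a value set by the 0.5 added counts. Apart from the alternatives' own construction, the cause was not tested. Depth limits Rims2 and Stx1a in the precipitate and Snap25, Stx1a, Rab27a and Rims2 for IgG.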
